A study of Mus musculus with 38 samples.

Results

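The interferon response genes described here are 46 genes that cells commonly switch on when an interferon reaches them. They were taken by symbol from a list, found in both RNA tables, and are 46 of the 25746 genes measured. Of these, 45 passed the filter on low values (at least 1 TPM in at least 2 libraries), as did 15659 genes of the whole tables. The member that did not pass was Oas3, which was listed at 0 in 22 of 29 libraries.

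Interferons are secreted proteins that warn cells of infection. Type I interferons act through a DNA element called the ISRE, with Stat2 and Irf9 among the factors used, while interferon gamma acts through the GAS element and induces Irf1. Their targets sense foreign nucleic acid, block its translation or copying, tag proteins with Isg15, or attack vacuoles that hold microbes. In adipose tissue, interferon signals are known from work on obesity and on immune cells that enter fat.

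The cells were Tcf21 lineage cells sorted from mouse visceral adipose tissue, with 5000 cells in each library. RNA came from 29 libraries in 8 groups. The KO groups, labelled Tcf21 KO, were taken at 3 weeks of age on regular diet (KO 3W, n = 5) and after 1 week (KO 1W HFD, n = 2) or 12 weeks (KO 12W HFD, n = 2) of a high-fat diet begun at 6 weeks of age. The WT groups were taken at postnatal day 12 (WT P12, n = 2) and 3 weeks of age (WT 3W, n = 7), after 1 week (WT 1W HFD, n = 4) or 12 weeks (WT 12W HFD, n = 5) of the same high-fat diet, and at 6 months of age (WT 6M, n = 2). WT P12, WT 3W and WT 6M were on regular diet. The treatment protocol, which is the same on all labels, describes tamoxifen given to activate MerCreMer, a Cre recombinase that acts once tamoxifen is present. It gives 75 mg per kg a day by gavage for adult mice, pregnant females included, and 100 µg a day for neonatal mice, without saying which groups were dosed when. Genotype was taken from the sample titles, because the genotype field differed from the title in 22 of 38 samples. The labels do not name the KO allele, the driver of the Cre, or whether animals were pooled. The HFD groups differ from WT 3W in age as well as diet, and no library of their age on regular diet was analysed here.

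Levels are given as TPM, a share of the transcripts of a library that is corrected for gene length, so levels of different genes can be set beside each other. A change is a difference of means on the log2(TPM + 1) scale with its standard error, from limma fitted over all 29 libraries. A gene is said to have risen or fallen where its Benjamini-Hochberg adjusted p over all 15659 genes was under 0.05. The labels do not say whether libraries of a group come from separate animals, so the p-values measure the spread between libraries. Read depth is unknown because TPM does not hold it. In bulk RNA, fewer cells of a type and less RNA per cell cannot be told apart.

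The sort was checked against defining markers. Pdgfra, a surface receptor of adipose progenitors, lay between 63.9 and 188 TPM over the groups. Tcf21 had 20.0 to 60.9 TPM in KO 3W libraries and 37.6 to 109 TPM in WT 3W libraries, so it was present in both. It had 8.10 and 16.45 TPM in KO 1W HFD and 11.3 to 47.4 TPM in WT 1W HFD libraries. At 12W HFD it had 1.64 and 5.67 TPM in KO and 5.86 to 13.5 TPM in WT libraries. In WT P12 it had 42.3 and 48.1 TPM, and in WT 6M 2.24 and 5.54 TPM. The summed level of 18 macrophage markers was 103 to 386 TPM in KO 3W and 68.1 to 162 TPM in WT 3W libraries. It was 641 to 1000 TPM in KO 1W HFD and 344 to 517 TPM in WT 1W HFD libraries, 2387 to 6754 TPM in KO 12W HFD and 3191 to 6568 TPM in WT 12W HFD libraries, 1576 and 4268 TPM in WT 6M and 133 and 164 TPM in WT P12. The macrophage marker Adgre1 was at 0 to 0.64 TPM in WT 3W, 2.07 to 6.88 TPM in WT 1W HFD and 48.8 to 159 TPM in WT 12W HFD libraries. The T cell marker Cd3d was listed at 0 in all WT 3W, WT 1W HFD, KO 3W and KO 1W HFD libraries. The B cell marker Cd79a reached 1.59 TPM in WT 3W, 2.05 TPM in WT 1W HFD and 5.53 TPM in KO 1W HFD. Sums of 15 lymphocyte markers were 2.08 to 8.18 TPM in WT 3W and 3.44 to 24.25 TPM in WT 1W HFD. They were 3.67 and 33.06 TPM in KO 1W HFD. The endothelial marker Pecam1 had 0.05 to 2.87 TPM in WT 3W and 11.5 to 61.8 TPM in WT 1W HFD. Sums of 7 erythroid markers ran from 9.68 TPM (WT P12) to 41700 TPM (WT 12W HFD). None of the 46 genes is in a marker list.

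Some of the promoters show the sequences through which interferons are known to act. Of the 46 genes, 35 had a promoter in the RefSeq table of build GRCm38.p6, which runs from 250 bases before to 50 bases after the gene start. The ISRE core was searched as GAAA, any 2 bases and GAAA again, and the GAS element as TTC, any 3 bases and GAA, on both strands, and overlapping matches were counted. The ISRE core stood in 18 of 35 interferon response genes (51.4%) and in 4.03% of 16700 genes with a promoter. The GAS element stood in 10 of 35 (28.6%) and in 9.07% of genes. Other promoters held neither, among them those of Irf7, Irf9, Samd9l, Ifi47, Oasl2, Lgals3bp and Phf11d. All 6 promoters printed below hold a match. A match is a description of letters, not a shown binding site. The 250 bases before the start of 6 genes are printed 5′ to 3′ on the strand of the gene, with the ISRE cores (for Irf1, the GAS element) in capitals. They were chosen because the genes stand for the sets below: RNA-binding Ifit proteins, the ubiquitin-like Isg15, a Gbp GTPase, the RNA sensor Oas1a and the transcription factor Irf1. In GRCm38.p6, the assembly behind mm10, they run over chr19:34640639-34640888 (Ifit1, plus strand), chr19:34583279-34583528 (Ifit3, plus), chr4:156200819-156201068 (Isg15, minus), chr3:142620413-142620662 (Gbp2, plus), chr5:120907526-120907775 (Oas1a, minus) and chr11:53769764-53770013 (Irf1, plus).
Ifit1: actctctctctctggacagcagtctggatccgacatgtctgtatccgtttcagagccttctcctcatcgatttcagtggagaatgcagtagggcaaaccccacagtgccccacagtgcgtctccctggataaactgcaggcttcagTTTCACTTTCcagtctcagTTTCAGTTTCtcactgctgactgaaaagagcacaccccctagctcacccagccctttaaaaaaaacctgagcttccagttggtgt
Ifit3: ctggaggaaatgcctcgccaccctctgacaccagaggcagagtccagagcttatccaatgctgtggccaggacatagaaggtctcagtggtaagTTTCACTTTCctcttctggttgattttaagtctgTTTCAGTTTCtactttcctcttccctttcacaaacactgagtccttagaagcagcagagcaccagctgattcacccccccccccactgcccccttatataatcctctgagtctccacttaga
Isg15: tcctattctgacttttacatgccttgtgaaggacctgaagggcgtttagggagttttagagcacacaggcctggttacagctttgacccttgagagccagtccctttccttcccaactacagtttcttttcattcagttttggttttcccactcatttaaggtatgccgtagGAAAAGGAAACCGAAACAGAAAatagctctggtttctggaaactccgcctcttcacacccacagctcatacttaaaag
Gbp2: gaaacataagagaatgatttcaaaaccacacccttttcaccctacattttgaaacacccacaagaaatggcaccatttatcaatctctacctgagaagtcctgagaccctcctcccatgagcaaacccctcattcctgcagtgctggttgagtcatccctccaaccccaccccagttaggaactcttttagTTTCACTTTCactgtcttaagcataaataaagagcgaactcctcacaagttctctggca
Oas1a: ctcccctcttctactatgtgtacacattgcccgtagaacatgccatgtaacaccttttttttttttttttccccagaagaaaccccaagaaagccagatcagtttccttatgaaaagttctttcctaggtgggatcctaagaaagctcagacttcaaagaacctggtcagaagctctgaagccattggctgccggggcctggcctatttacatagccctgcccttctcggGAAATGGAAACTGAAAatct
Irf1: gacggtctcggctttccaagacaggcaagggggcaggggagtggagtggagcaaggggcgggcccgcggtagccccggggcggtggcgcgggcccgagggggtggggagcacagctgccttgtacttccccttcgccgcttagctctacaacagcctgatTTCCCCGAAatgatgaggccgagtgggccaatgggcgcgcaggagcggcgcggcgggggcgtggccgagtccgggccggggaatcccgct
Ifit1 (chromosome 19) held 2 ISRE cores, at 104 and 85 bases before the start, and Ifit3, its neighbour on chromosome 19, held 2 at 156 and 122 bases before it. In Isg15 (chromosome 4) 3 overlapping cores ran together from 78 bases before the start. In Oas1a (chromosome 5) 2 overlapping cores began 20 bases before the start, the nearest of the 6 genes, and in Gbp2 (chromosome 3) the single core lay 59 bases before it. The Irf1 promoter (chromosome 11) held no ISRE core in the window and 1 GAS element 90 bases before the start.

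The 46 genes covered a wide range of levels. Averaged over the 29 libraries, Ifi27, a small membrane protein gene, was highest at 390.3 TPM, followed by Lgals3bp, which encodes a secreted glycoprotein (248 TPM), Bst2, which tethers virus particles to the cell (157 TPM), Ifi35 (94.9 TPM) and Irf1 (85.8 TPM). The least abundant were Oas3 (0.257 TPM), the dynamin-like GTPase gene Mx1 (0.560 TPM, listed at 0 in 18 libraries) and Oas2 (1.66 TPM, listed at 0 in 7). Ifit3 and Ifit3b, and Oas1a and its relatives Oas1b and Oas1g, are near-identical in part, so reads may be split between them and their levels are uncertain. In 33 of the 46 genes the library with the highest level of all 29 was the same one, WT 12W HFD replicate 1.

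**Figure D1:**
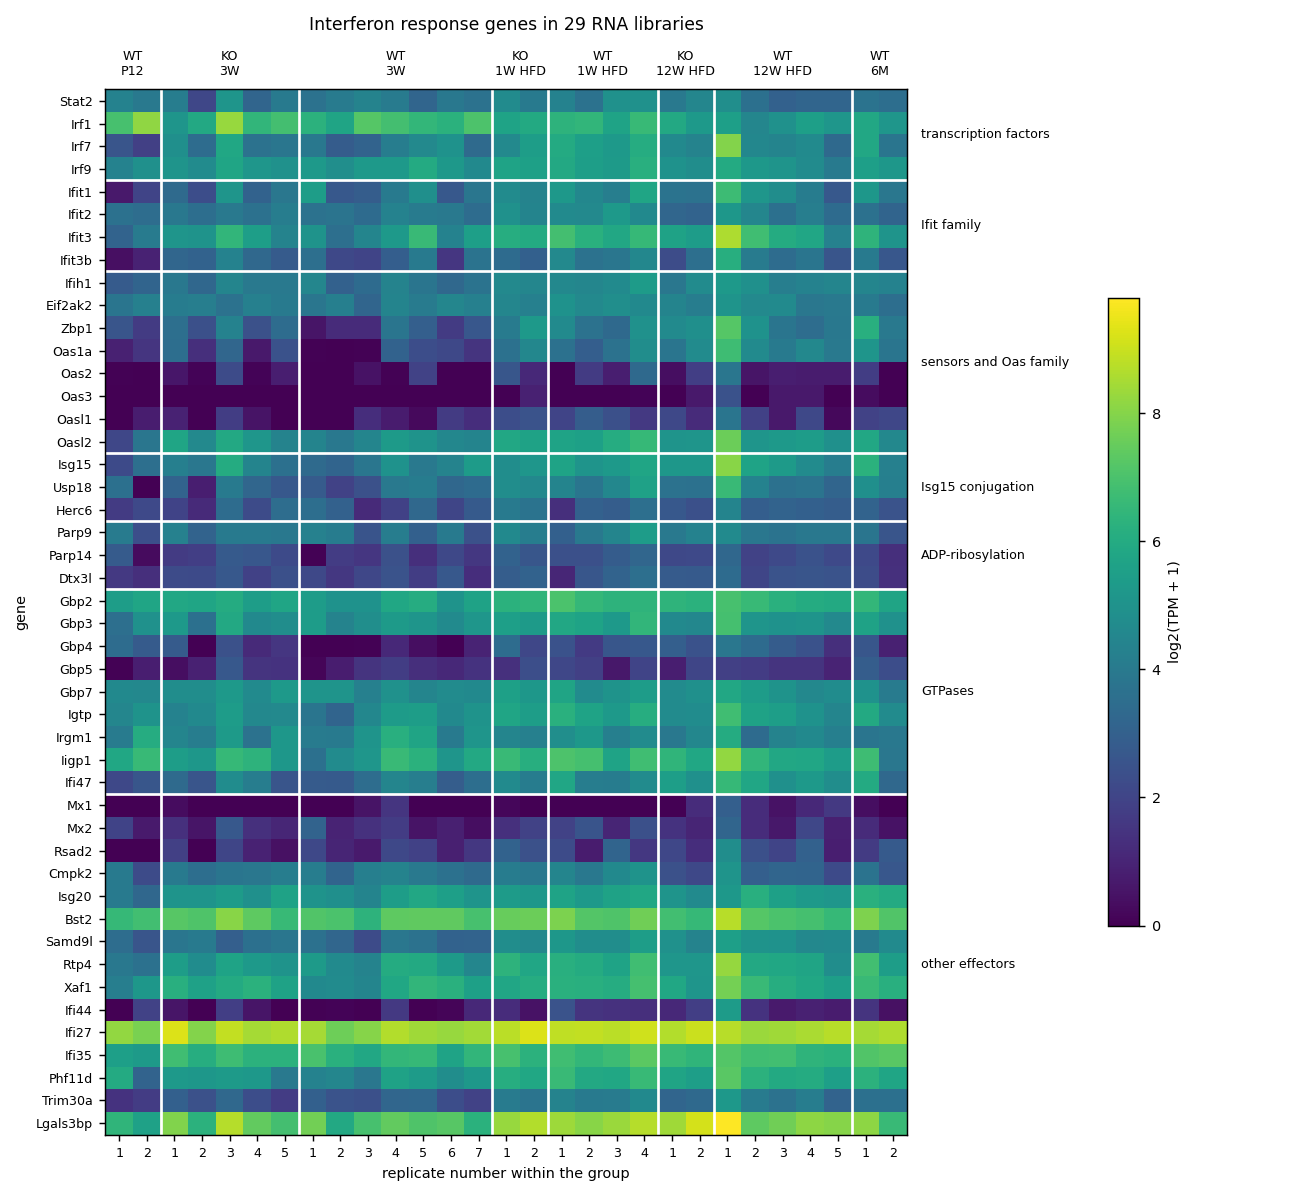
Level of each of the 46 genes (rows, grouped by role) in each of the 29 libraries (columns, grouped by genotype and stage), as log2(TPM + 1). WT 12W HFD replicate 1 is bright over most rows, with 43 of 46 genes at their highest of the 5 WT 12W HFD libraries, and both WT P12 libraries are dark for Ifit1 and Ifit3b.

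One library therefore has to be described before the comparisons. WT 12W HFD replicate 1 held the highest value of its group of 5 for 43 of 46 interferon response genes, while 17.6% of the 15659 tested genes were highest there. Irf7, a factor that amplifies interferon production, read 253 TPM in it and 22.4, 20.4, 25.0 and 9.21 TPM in replicates 2 to 5. Isg15 read 261 TPM against 50.3, 39.3, 25.6 and 16.7 TPM, and Ifit3, whose product is part of a complex that binds foreign RNA, read 386 TPM against 108, 64.8, 54.2 and 19.0 TPM. Ifi44, an interferon-induced gene of little known function, read 40.1 TPM against 1.67, 0.63, 0.88 and 0.67 TPM. In each of these 4 genes replicate 1 lay above all other libraries of the group. Set against the median of the other 4, 44 of 45 tested genes were higher in it, with a median log2 difference of 1.70, against 0 over all genes. Its summed macrophage markers (6196 TPM) lay inside the range of the other 4 (3191 to 6568 TPM). Its summed neutrophil markers (9.98 TPM) lay above the other 4 (1.52 to 4.71 TPM). The part of other cell types in its interferon gene levels was not tested. For comparisons that use this library, the median change of the tested interferon response genes is given with and without it. Most changes of single genes, and all results of the wider pathway list, are given only with it.

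Other libraries also led their group. KO 3W replicate 3 was highest of 5 for 32 of 46 genes (20.2% of all genes), and WT 6M replicate 1 was the higher of 2 for 39 (48.6%). WT 1W HFD replicate 4 was highest of 4 for 28 (23.1%), and WT 3W replicate 4 was highest of 7 for 17 (6.12%). KO 3W replicate 3 also had the highest sum of 8 early response genes known to react to tissue dissociation among the KO 3W libraries, 21870 TPM against 4388 to 15159 TPM. The part of dissociation in its interferon gene levels was not tested.

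**Figure D2:**
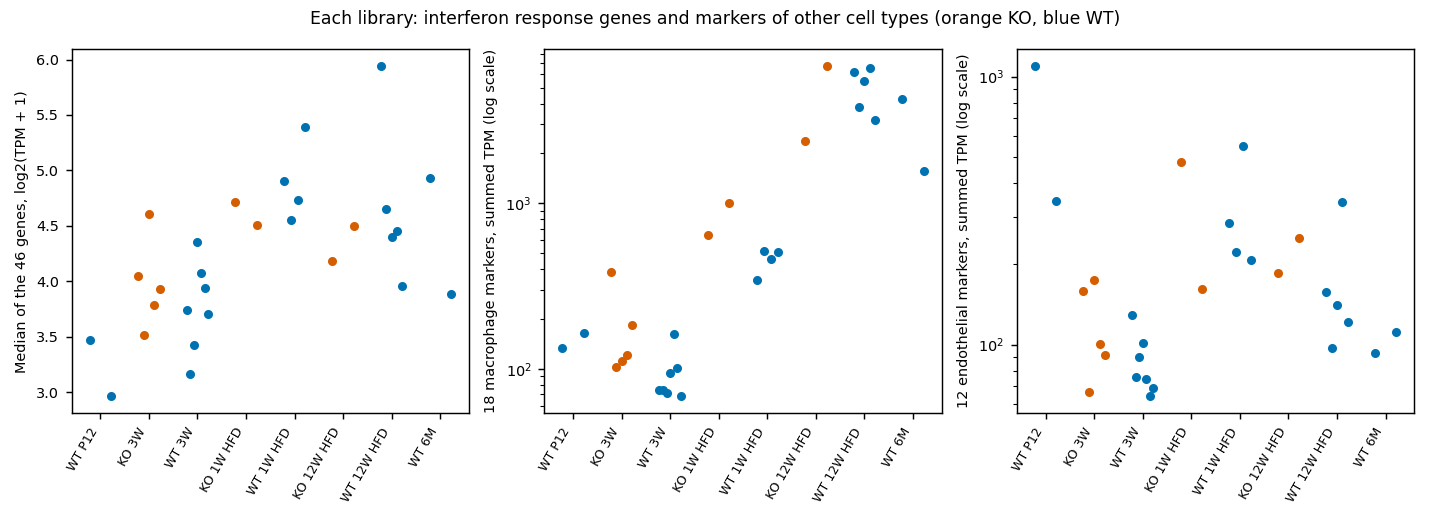
Each point is a library, by group: the median log2(TPM + 1) of the 46 genes (left), the summed TPM of 18 macrophage markers (middle, log axis) and of 12 endothelial markers (right, log axis). The interferon gene median of WT 1W HFD (4.56 to 5.39) lies above all WT 3W libraries (3.16 to 4.36). The same holds for macrophage sums (344 to 517 against 68.1 to 162 TPM) and endothelial sums (207 to 552 against 64.1 to 129 TPM). Macrophage markers are far higher in the 12W HFD groups than in the 1W HFD groups. The part of these cell types was not tested.

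The first comparison asked whether WT cells after 1 week of high-fat diet differ from WT cells at 3 weeks. Of 45 genes tested, 14 rose and 0 fell, where 8.03% of all genes were called and 4.78% rose and 3.25% fell. A positive change was found in 42 of the 45, against 51.2% of all genes. The median change was 1.04 over the 45 genes and 0.02 over all genes. In 11 genes every WT 1W HFD library lay above every WT 3W library, which held for 3.71% of all genes.

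Among the transcription factors, Irf7 (ENSMUSG00000025498, mm10 chromosome 7, 141262706 to 141266481) read 62.2, 45.4, 37.8 and 65.1 TPM in WT 1W HFD libraries, against a lowest of 6.30, a median of 14.0 and a highest of 30.4 TPM in WT 3W libraries. The groups did not overlap, and the change was 1.85 ± 0.59 (SE; limma adjusted p = 0.0483). This call was lost in 9 of 11 fits that left out 1 library, with adjusted p up to 0.136. Irf1 and Irf9 were at -0.29 ± 0.38 and 0.50 ± 0.28, and Stat2 at 0.62 ± 0.40, none past the threshold.

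In the Ifit family all 4 genes had a positive change and 1 passed. Ifit2, which binds foreign RNA, rose to 24.9, 23.6, 37.9 and 24.0 TPM in WT 1W HFD libraries, against 9.72 to 19.3 TPM in WT 3W libraries (0.99 ± 0.27, adjusted p = 0.0214). It lost the call without WT 1W HFD replicate 3 (adjusted p = 0.112). Ifit3 had 58.2 to 117 TPM in WT 1W HFD and 10.9 to 98.9 TPM in WT 3W libraries, so the groups overlapped (1.41 ± 0.54, adjusted p = 0.109). Ifit1 was at 1.13 ± 0.59 (adjusted p = 0.273).

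Of the nucleic acid sensors and the Oas family, 4 of 7 tested genes rose. Oas1a (ENSMUSG00000052776, chromosome 5, 120896256 to 120907521), which makes the messenger that turns on RNase L, read 11.4, 6.61, 12.0 and 26.9 TPM in WT 1W HFD libraries. In WT 3W libraries it read 0.05, 0, 0.05, 7.41, 3.95, 3.32 and 1.77 TPM, so that 3 of the 7 were at or near 0 and the highest passed the lowest WT 1W HFD library. The change was 2.47 ± 0.62 (adjusted p = 0.0123), and the adjusted p was 0.0705 without WT 1W HFD replicate 4. Zbp1, a sensor of Z-form nucleic acid that can trigger cell death, had 9.04 to 30.4 TPM in WT 1W HFD and 0.46 to 12.8 TPM in WT 3W libraries (2.16 ± 0.62, adjusted p = 0.0299). The RNA sensor gene Ifih1 rose by 1.04 ± 0.29 (adjusted p = 0.0222) and the Oas-like gene Oasl2 by 1.38 ± 0.41 (adjusted p = 0.0345). Eif2ak2, the kinase PKR that halts translation, was at 0.69 ± 0.24 with no overlap between the groups but did not pass (adjusted p = 0.0839).

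The 3 genes of Isg15 conjugation did not pass. Isg15 had 32.6 to 53.3 TPM in WT 1W HFD and 7.97 to 40.7 TPM in WT 3W libraries (1.28 ± 0.54, adjusted p = 0.155). Usp18, which strips Isg15 from proteins and damps the receptor, was at 1.46 ± 0.62, and Herc6, the main Isg15 ligase of mice, at 0.17 ± 0.48. The ADP-ribosylation genes Parp9, Parp14 and Dtx3l were at 0.70 ± 0.42, 1.18 ± 0.43 and 0.57 ± 0.38 and did not pass.

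Of the 9 GTPases, 3 rose. Gbp2 (ENSMUSG00000028270, chromosome 3, 142620602 to 142638008), a guanylate binding protein that acts on vacuoles of microbes, read 128, 91.6, 79.7 and 80.5 TPM in WT 1W HFD libraries, against 30.4 to 66.5 TPM in WT 3W libraries. The groups did not overlap (1.13 ± 0.22, adjusted p = 0.00183). Gbp4, of the same family, read 4.49, 2.20, 5.13 and 5.50 TPM in WT 1W HFD libraries and was at 0 to 1.16 TPM in WT 3W, with 3 of 7 listed at 0 (2.00 ± 0.49, adjusted p = 0.00987). Igtp, an immunity-related GTPase, rose by 1.25 ± 0.39 (adjusted p = 0.0426), a call lost in 8 of 11 fits that left out 1 library. Iigp1, the most abundant GTPase, was at 1.26 ± 0.52 (adjusted p = 0.146).

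Of the 15 other effectors, 5 rose. Samd9l (ENSMUSG00000047735, chromosome 6, 3372257 to 3399572), which restrains translation and growth, read 35.0, 26.7, 27.0 and 42.7 TPM in WT 1W HFD libraries, against 3.73 to 13.7 TPM in WT 3W libraries (1.79 ± 0.28, adjusted p = 0.000305). Trim30a, a mouse regulator of innate signalling, had 15.1 to 24.0 TPM in WT 1W HFD and 2.81 to 8.62 TPM in WT 3W libraries (1.60 ± 0.34, adjusted p = 0.00392). Neither gene's groups overlapped. Phf11d rose by 1.41 ± 0.40 (adjusted p = 0.0266), Lgals3bp by 1.41 ± 0.41 (adjusted p = 0.0330) and Ifi27 by 0.62 ± 0.20 (adjusted p = 0.0491).

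Gbp2, Gbp4, Samd9l and Trim30a were the 4 genes that passed in all 11 fits with 1 library left out. Oasl2, Lgals3bp, Zbp1, Phf11d and Ifi27 lost the call in 7, 5, 4, 3 and 9 of these fits, with adjusted p up to 0.141, 0.112, 0.122, 0.0988 and 0.153, and Ifih1 in 2 of them (up to 0.122). The count of 14 was 8 without WT 3W replicate 2 or 3, 7 without WT 1W HFD replicate 1 or 3, and 5 without WT 1W HFD replicate 4. Beside these genes, macrophage marker sums were 344 to 517 TPM in WT 1W HFD and 68.1 to 162 TPM in WT 3W libraries, and endothelial sums were 207 to 552 TPM in WT 1W HFD and 64.1 to 129 TPM in WT 3W libraries. Their part in the result was not tested.

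**Figure D3:**
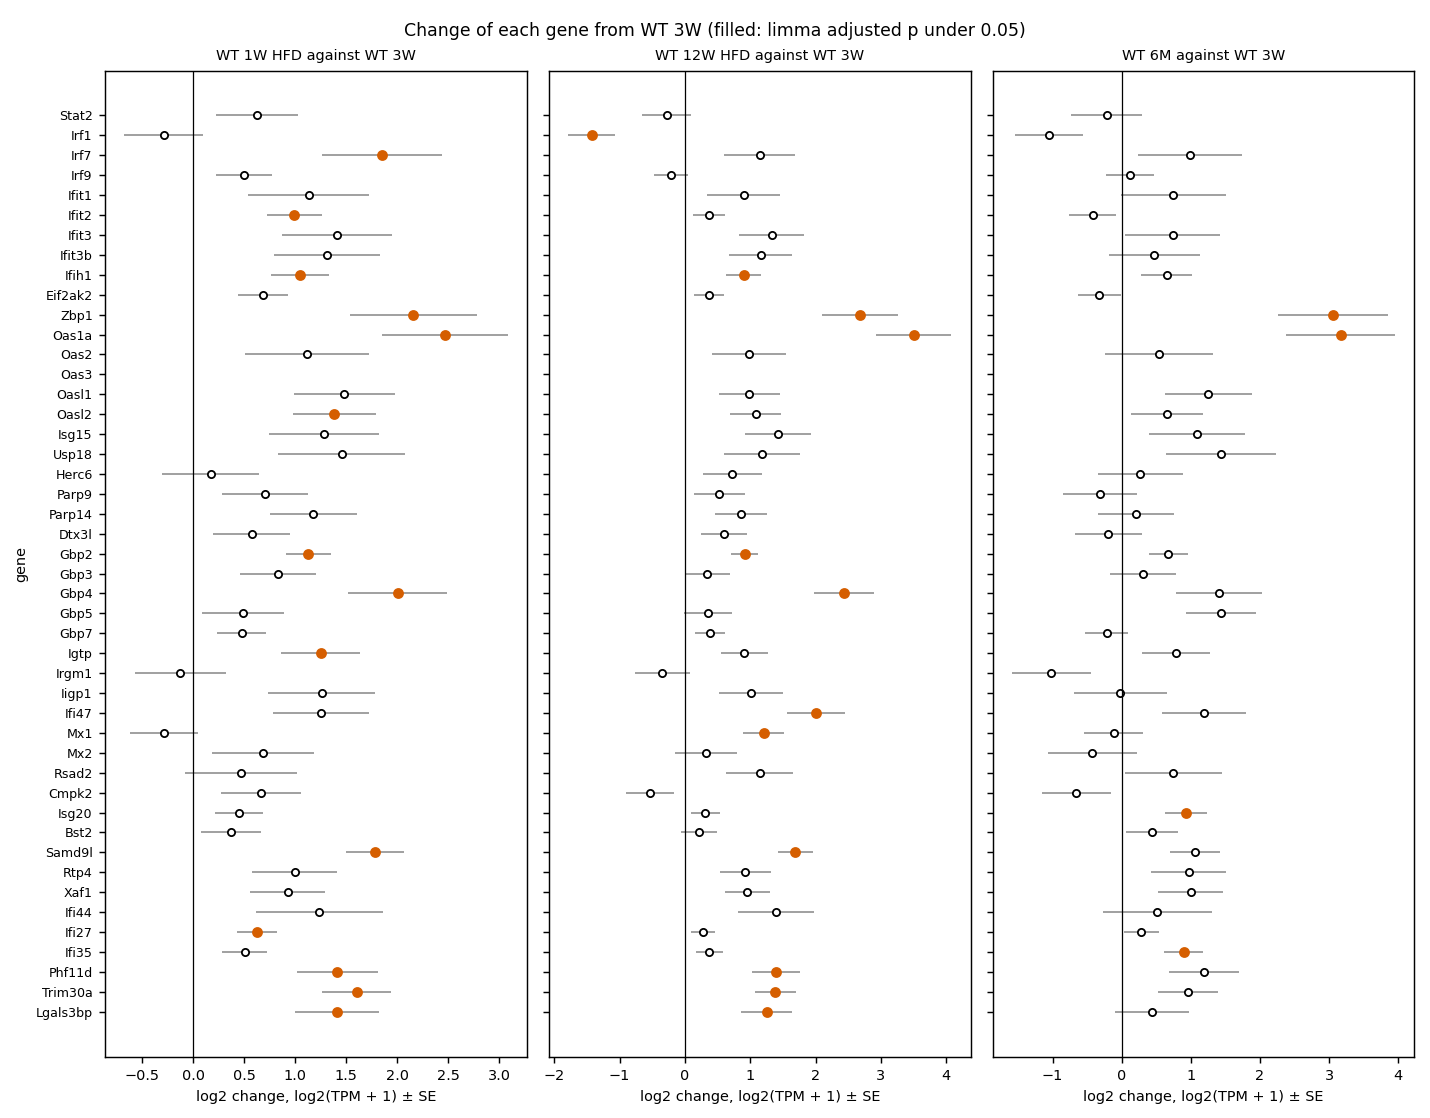
Change of each gene on the log2(TPM + 1) scale with its standard error, in WT 1W HFD (left), WT 12W HFD (middle) and WT 6M (right), each against WT 3W. Filled points passed the limma adjusted p of 0.05, 14 on the left, 12 in the middle and 4 on the right, and Irf1 in the middle panel is the only filled point below 0.

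The second comparison set WT cells after 12 weeks of high-fat diet against the same WT 3W libraries, so the results of both comparisons share a control group. Of 45 genes, 11 rose and 1 fell, where 14.2% of all genes were called, 7.94% higher and 6.23% lower. A positive change was found in 40 of the 45, against 46.8% of all genes. The median change was 0.91 over the 45 genes and -0.04 over all genes. In 4 genes all WT 12W HFD libraries lay above all WT 3W libraries (4.55% of all genes), and in 1 below (3.05%). Without replicate 1 of WT 12W HFD, 8 rose and 2 fell and the median change was 0.47.

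Irf1 (ENSMUSG00000018899, chromosome 11, 53770014 to 53778374), the interferon gamma response factor with the GAS element printed above, was the gene that fell. It read 44.9, 21.7, 30.3, 44.9 and 34.0 TPM in WT 12W HFD libraries, all below the WT 3W libraries, which had a lowest of 51.6, a median of 88.0 and a highest of 147 TPM. The change was -1.43 ± 0.36 (adjusted p = 0.00603), and it passed in all 12 fits with 1 library left out. Irf1 is also an early response gene, and the summed early response genes were 6142 to 15933 TPM in WT 12W HFD and 10004 to 22601 TPM in WT 3W libraries. Their part in the lower Irf1 was not tested. Irf7, Irf9 and Stat2 were at 1.14 ± 0.55, -0.21 ± 0.26 and -0.28 ± 0.37 and did not pass.

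Of the Ifit family all 4 genes had a positive change and 0 passed. Ifit3 read the values given above in WT 12W HFD libraries, against 10.9 to 98.9 TPM in WT 3W (1.33 ± 0.50, adjusted p = 0.0798). Ifit1 was at 0.90 ± 0.55 and Ifit2 at 0.37 ± 0.25.

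Among sensors, Oas1a had 106, 24.8, 15.5, 22.7 and 14.7 TPM in WT 12W HFD libraries, all above the highest WT 3W library at 7.41 TPM. The change was 3.50 ± 0.58 (adjusted p = 5.35e-05), and it was 3.02 without replicate 1. Zbp1 read 148, 30.9, 13.0, 10.4 and 14.0 TPM, against 0.46 to 12.8 TPM in WT 3W, an overlap of 1 WT 12W HFD library with 1 WT 3W library (2.68 ± 0.58, adjusted p = 0.00157). Ifih1 rose by 0.90 ± 0.27 (adjusted p = 0.0207) and lost the call without WT 12W HFD replicate 1 (adjusted p = 0.0936) or 2 (adjusted p = 0.0596).

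Of the GTPases, Gbp2 (0.91 ± 0.21, adjusted p = 0.00221), Gbp4 (2.43 ± 0.46, adjusted p = 0.000282) and Ifi47 (2.01 ± 0.44, adjusted p = 0.00173) rose. Ifi47, an immunity-related GTPase gene on chromosome 11, read 93.7, 53.8, 29.3, 36.9 and 26.7 TPM in WT 12W HFD libraries, against 5.92 to 20.7 TPM in WT 3W libraries with no overlap. Iigp1 was at 1.01 ± 0.49 (adjusted p = 0.189).

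Of the other effectors 5 rose. Samd9l read 44.9, 31.8, 31.0, 22.9 and 24.3 TPM in WT 12W HFD libraries, above all WT 3W libraries (1.69 ± 0.27, adjusted p = 2.73e-05). Mx1, whose product blocks influenza-type viruses in mice that carry an intact copy, read 6.89, 1.36, 0.39, 1.19 and 2.12 TPM in WT 12W HFD libraries and was listed at 0 in 5 of 7 WT 3W libraries, the others at 0.42 and 1.86 TPM (1.20 ± 0.31, adjusted p = 0.00811). Trim30a (1.38 ± 0.32, adjusted p = 0.00276), Phf11d (1.39 ± 0.37, adjusted p = 0.00970) and Lgals3bp (1.25 ± 0.39, adjusted p = 0.0275) rose. Phf11d and Lgals3bp lost the call without replicate 1 of WT 12W HFD (adjusted p = 0.0545 and 0.149), and Lgals3bp also without WT 3W replicate 2 or 7 (adjusted p = 0.0653 and 0.0556).

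Isg15 (1.42 ± 0.51, adjusted p = 0.0591) and the ADP-ribosylation genes did not pass. Parp9 was at 0.53 ± 0.39 and Dtx3l at 0.60 ± 0.35. Irf1, Zbp1, Oas1a, Gbp2, Gbp4, Ifi47, Mx1, Samd9l and Trim30a passed in all 12 fits with 1 library left out, 9 of the 12 genes called. Of these, Mx1 lost its call with library weights (adjusted p = 0.0579) and with the compared groups fitted alone (adjusted p = 0.0649). The 14 most abundant members, the 2 of each role with the highest mean TPM, ran from -1.43 ± 0.36 for Irf1 to 2.68 ± 0.58 for Zbp1, with 12 positive. Without WT 12W HFD replicate 5, which had the lowest median of the group, 20 genes rose and 1 fell, Ifit3, Isg15 and Rsad2 among them. Macrophage sums were 3191 to 6568 TPM in WT 12W HFD and 68.1 to 162 TPM in WT 3W libraries, and their part in the result was not tested.

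**Figure D4:**
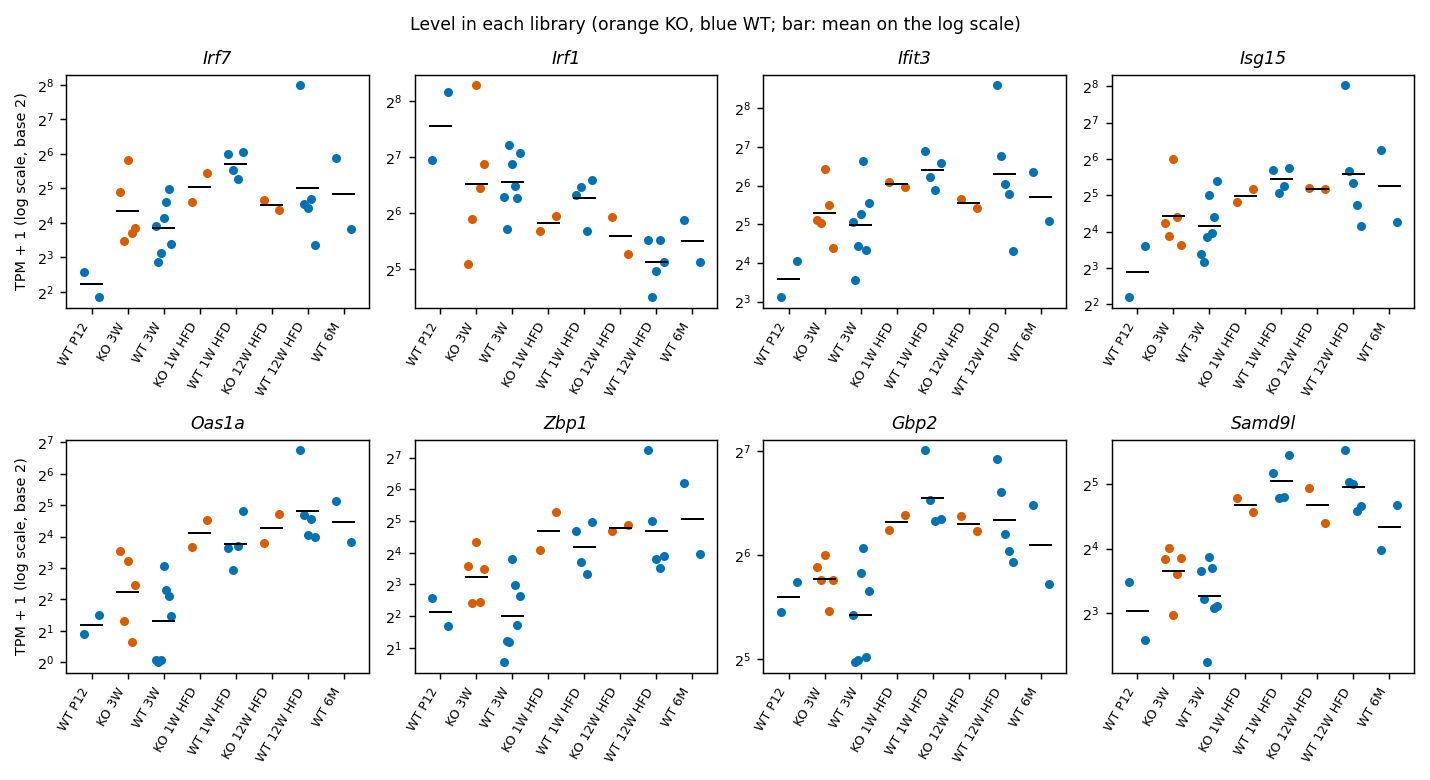
TPM + 1 of 8 genes in each library, on log axes, by group, with KO in orange, WT in blue and the mean of the log values as a bar. Oas1a and Samd9l of all HFD libraries, except 1 WT 1W HFD library for Oas1a, lie above all WT 3W libraries, Irf1 runs the other way at 12W HFD, and WT 12W HFD replicate 1 is the top point for Irf7, Ifit3, Isg15, Oas1a and Zbp1.

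Set directly against each other, WT 12W HFD and WT 1W HFD differed in 1 gene of 45, where 5.93% of all genes were called, 3.54% higher and 2.39% lower. Mx1 rose at 12W HFD, where all 5 libraries had 0.39 to 6.89 TPM, while all 4 WT 1W HFD libraries were listed at 0 (1.49 ± 0.36, adjusted p = 0.00936). The median change was -0.16 over the 45 genes and -0.05 over all genes. Of the 45 genes 11 were positive, against 44.3% of all genes. The median was -0.02 without WT 12W HFD replicate 5, -0.10 without replicate 4, -0.03 and -0.27 without WT 1W HFD replicates 4 and 3, and -0.52 without WT 12W HFD replicate 1. Without the last of these, Cmpk2, a mitochondrial nucleotide kinase gene (-1.64, adjusted p = 0.00493), and Irf9 (-0.96, adjusted p = 0.0462) also passed, both lower at 12W HFD. With all libraries Cmpk2 was at -1.20 ± 0.42 (adjusted p = 0.0928) and Irf1 at -1.14 ± 0.41 (adjusted p = 0.111). Irf1 read 21.7 to 44.9 TPM in WT 12W HFD and 50.5 to 95.0 TPM in WT 1W HFD libraries, without overlap, and Ifi27 likewise had all WT 12W HFD libraries below all WT 1W HFD libraries, which held for 5.58% of all genes. The reverse held for Mx1 and for 4.97% of all genes. Among the 14 most abundant members the range was -1.14 for Irf1 to 0.52 ± 0.67 for Zbp1. Macrophage marker sums were 3191 to 6568 TPM in WT 12W HFD and 344 to 517 TPM in WT 1W HFD libraries. The median log2(TPM + 1) of the 46 genes was 3.96 to 5.94 in WT 12W HFD libraries and 4.56 to 5.39 in WT 1W HFD libraries.

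WT cells at 6 months on regular diet were compared with WT 3W. Of 45 genes 4 rose and 0 fell, where 10.8% of all genes were called with 4.00% higher and 6.85% lower. Of the 45 genes 33 were positive, against 33.2% of all genes. The median change was 0.65 over the 45 genes and -0.24 over all genes. Scaling by median ratios moved the median of all genes to -0.03 and the count to 7. Oas1a read 33.8 and 13.1 TPM in WT 6M, above all WT 3W libraries (3.17 ± 0.79, adjusted p = 0.00943), and Zbp1 read 71.9 and 14.5 TPM, against 0.46 to 12.8 TPM in WT 3W (3.06 ± 0.80, adjusted p = 0.0128). Isg20, an exonuclease gene, had 74.1 and 62.0 TPM in WT 6M and 20.3 to 57.7 TPM in WT 3W libraries (0.93 ± 0.30, adjusted p = 0.0440). Ifi35 had 138 and 156 TPM in WT 6M and a median of 85.2 and a highest of 126 TPM in WT 3W libraries (0.90 ± 0.28, adjusted p = 0.0385). Of 9 fits with 1 library left out, Isg20 lost its call in 6 (adjusted p up to 0.286) and Ifi35 in 5 (up to 0.274), each also without WT 6M replicate 2. Irf1 was at -1.06 ± 0.49 (adjusted p = 0.176), and the 14 most abundant members ran from this value to that of Zbp1. In 10 genes both WT 6M libraries lay above all WT 3W libraries (5.43% of all genes), and Irgm1 lay below them (11.9%). Without WT 6M replicate 1, 0 genes passed and the median change was 0.01. Without WT 6M replicate 2 the median was 1.04, and without WT 3W replicate 2 or 3 the count was 2. WT 6M replicate 1 had 4268 TPM of macrophage markers and 301 TPM of 5 neutrophil markers, against 1576 and 5.50 TPM in replicate 2, and their part in the result was not tested.

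WT 12W HFD against WT 6M, both adult, gave 0 of 45 genes called, where 0.881% of all genes were called. Of all genes 14.0% had an unadjusted limma p under 0.05, as did 3 of the 45. Mx1 was at 1.32 ± 0.45 (adjusted p = 0.155), Ifit2 at 0.79 ± 0.36 (adjusted p = 0.321) and Eif2ak2 at 0.70 ± 0.33 (adjusted p = 0.334). The median change was 0.34 over the 45 genes and 0.22 over all genes. It was -0.06 without WT 12W HFD replicate 1, 0.59 without replicate 5, 0.73 without WT 6M replicate 1 and -0.17 without WT 6M replicate 2. By level, the 14 most abundant members ran from -0.38 ± 0.83 for Zbp1 to 1.03 ± 0.70 for Iigp1.

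In younger cells, WT 3W was compared with WT P12. Of 45 genes 1 rose and 1 fell, where 1.63% of all genes were called. Of the 45 genes 34 were positive (45.5% of all genes), with a median change of 0.39 against -0.04 over all genes. Isg20 rose to 20.3 to 57.7 TPM in WT 3W libraries, against 15.2 and 8.76 TPM at P12 (1.52 ± 0.30, adjusted p = 0.00615), and lost the call without WT P12 replicate 2 (adjusted p = 0.125). Gbp4 fell to 0 to 1.16 TPM in WT 3W, against 9.93 and 5.99 TPM at P12 (-2.77 ± 0.62, adjusted p = 0.0172), and lost the call without WT P12 replicate 1 (adjusted p = 0.179). The Ifit family had the highest median change of the role groups at 1.79, with Ifit1 at 5.46 to 43.3 TPM in WT 3W against 0.59 and 3.05 TPM at P12 (2.45 ± 0.76, adjusted p = 0.102). Ifit3b was at 2.19 ± 0.66 (adjusted p = 0.0889). In 10 genes all WT 3W libraries lay above both P12 libraries, which held for 2.83% of all genes, and in Gbp4 they lay below (5.17%). Irf1 had the lowest change of the 14 most abundant members and Ifit1 the highest. Irf1 read 51.6 to 147 TPM in WT 3W and 123 and 285 TPM at P12 (adjusted p = 0.355). Endothelial sums were 64.1 to 129 TPM in WT 3W and 343 and 1096 TPM at P12, and their part was not tested.

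The KO groups are labelled Tcf21 KO, after a transcription factor of the lineage. Tcf21 RNA overlapped between KO 3W and WT 3W libraries, and how far its function was lost was not tested. KO and WT libraries lie in separate deposited tables, and the comparisons across them assume that TPM is on 1 scale in both. Rescaling every column to 1000000 gave the same counts of members called. Pair numbers on the 3W labels were not used in these fits, and a fit with them is described at the end of the text. In KO 3W against WT 3W, 0 of 45 genes passed and 0% of all genes were called. Of all genes 3.49% had an unadjusted limma p under 0.05, as did 3 of the 45, all higher in KO. These were Gbp4 (1.23 ± 0.46), Zbp1 (1.24 ± 0.58) and Ifi27 (0.38 ± 0.19), each with adjusted p = 1. Gbp4 read 5.97, 0, 4.38, 1.25 and 1.90 TPM in KO 3W libraries, against 0 to 1.16 TPM in WT 3W. Zbp1 read 10.9, 4.29, 19.4, 4.42 and 10.1 TPM in KO 3W libraries, against 0.46, 1.33, 1.30, 12.8, 6.90, 2.27 and 5.25 TPM in WT 3W. Both genes overlapped between the groups, and in 0 of 45 genes did the groups separate fully (0.0575% of all genes with KO above, 0.0192% below). Of the 45 genes 32 were positive (51.4% of all genes) and the median change was 0.17, against 0.01 over all genes. Without KO 3W replicate 3 these were 25 positive and 0.03, and the median was 0.09 without WT 3W replicate 2, 0.27 without KO 3W replicate 2 and 0.29 without WT 3W replicate 4. Among the 14 most abundant members the range was -0.35 ± 0.58 for Usp18 to the value of Zbp1.

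Over the role groups at 3W, the median change lay between -0.07 for Isg15 conjugation and 0.41 for sensors and the Oas family. Isg15 itself read 17.8, 13.6, 63.3, 20.1 and 11.3 TPM in KO 3W, against 9.37, 7.97, 13.5, 31.0, 14.5, 20.0 and 40.7 TPM in WT 3W. Irf1 read 33.3, 58.7, 309, 86.2 and 116 TPM in KO 3W, against 51.6 to 147 TPM in WT 3W. In both genes KO replicate 3 held the highest value of all 12 libraries and the rest overlapped.

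After 1 week of high-fat diet, KO against WT gave 0 of 45 genes, where 0.0255% of all genes were called. An unadjusted limma p under 0.05 was reached by 0 of the 45 and by 3.45% of all genes. Herc6 was at 1.14 ± 0.66, Ifit3b at -0.95 ± 0.71 and Eif2ak2 at -0.39 ± 0.34, each with adjusted p = 1. The median change was -0.20 over the 45 genes and 0 over all genes, and it was -0.03 without WT 1W HFD replicate 4 and -0.10 without KO 1W HFD replicate 2. Irf7 read 23.5 and 42.6 TPM in KO 1W HFD, against 62.2, 45.4, 37.8 and 65.1 TPM in WT 1W HFD, and Samd9l read 26.5 and 22.7 TPM against 35.0, 26.7, 27.0 and 42.7 TPM. Samd9l was lower in both KO libraries than in all 4 WT libraries, as were Ifit3b, Eif2ak2 and Ifi44, which held for 5.41% of all genes. Herc6 was higher in both KO libraries (5.97%). The 14 most abundant members ran from -0.46 ± 0.75 for Isg15 to 0.50 ± 0.86 for Zbp1.

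After 12 weeks, KO against WT again gave 0 of 45 genes, where 0.00639% of all genes were called. Of all genes 3.64% had an unadjusted limma p under 0.05, as did 1 of the 45. That gene was Ifit2, which read 8.31 and 7.64 TPM in KO 12W HFD, below all WT 12W HFD libraries at 35.5, 21.8, 11.3, 17.2 and 9.71 TPM (-1.02 ± 0.36, adjusted p = 1). Cmpk2 was at -1.04 ± 0.52 and Isg20 at -0.61 ± 0.31. Of the 45 genes 7 were positive (47.6% of all genes) and the median change was -0.34, against -0.01 over all genes. Without WT 12W HFD replicate 1 these were 21 positive and -0.05, and the median was -0.56 without WT 12W HFD replicate 5. In Ifit2, Herc6 and Isg20 both KO libraries lay below all WT libraries (5.22% of all genes), and in 0 genes above (4.73%). Changes of the 14 most abundant members lay between -0.97 ± 0.79 for Ifit1 and 0.59 ± 0.55 for Lgals3bp. Oas1a read 13.0 and 25.4 TPM in KO 12W HFD and 106, 24.8, 15.5, 22.7 and 14.7 TPM in WT 12W HFD libraries, so 1 KO value lay below all WT values and the other among them.

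The change of the KO effect between stages was tested as an interaction. For 1W HFD against 3W, 0 of 45 genes passed, where 0.00639% of all genes were called. An unadjusted limma p under 0.05 was reached by 0 of the 45 and by 2.64% of all genes. The median was -0.35 and became -0.13 without KO 3W replicate 3. The smallest p-values were those of Ifit3b (-1.45 ± 0.86), Samd9l (-0.77 ± 0.47) and Gbp2 (-0.59 ± 0.37), each with adjusted p = 1. The 14 most abundant members ran from -0.81 ± 0.69 for Oasl2 to 0.46 ± 1.03 for Usp18. For 12W HFD against 3W, 0 of 45 passed, where 0% of all genes were called. Of all genes 2.68% had an unadjusted limma p under 0.05, as did 2 of the 45. These were Ifit2 (-1.05 ± 0.44) and Xaf1 (-1.40 ± 0.60), followed by Ifit3b (-1.58 ± 0.84), each with adjusted p = 1. Differences of the 14 most abundant members ran from -1.15 ± 0.67 for Oasl2 to 0.50 ± 0.63 for Irf1. The median of -0.65 became -0.24 without WT 12W HFD replicate 1 and -0.38 without KO 3W replicate 3. Without both it was -0.12, an alternative chosen after the data were seen.

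Within KO cells, 1W HFD against 3W gave 0 of 45 genes, where 0.862% of all genes were called. However, 41 were positive (52.2% of all genes), with a median change of 0.63 against 0.03 over all genes. An unadjusted limma p under 0.05 was reached by 8 of the 45, all higher at 1W HFD, and by 11.5% of all genes. Trim30a read 16.0 and 12.5 TPM in KO 1W HFD, against 6.99, 4.35, 8.94, 3.97 and 2.32 TPM in KO 3W (1.37 ± 0.46, adjusted p = 0.172). Oasl1 was at 1.77 ± 0.66 and Samd9l at 1.02 ± 0.38 (each adjusted p = 0.244). In 14 genes both KO 1W HFD libraries lay above all KO 3W libraries, which held for 8.53% of all genes. Among the 14 most abundant members the range was -0.70 ± 0.51 for Irf1 to 1.91 ± 0.83 for Usp18. The KO groups are smaller than the WT groups, and a change that missed the threshold here is not shown to differ from WT.

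KO 12W HFD against KO 3W gave 0 of 45, where 5.15% of all genes were called, 3.19% higher and 1.96% lower. Of the 45 genes 30 were positive (45.4% of all genes), with a median of 0.24 against -0.05 over all genes. An unadjusted limma p under 0.05 was reached by 5 of the 45 and by 15.5% of all genes. Cmpk2 read 4.41 and 3.33 TPM in KO 12W HFD, against 10.7 to 16.6 TPM in KO 3W, without overlap (-1.60 ± 0.52, adjusted p = 0.0752). Ifi47 read 43.7 and 28.8 TPM, above all KO 3W libraries at 4.92 to 25.9 TPM (1.70 ± 0.63, adjusted p = 0.136). Samd9l was at 1.01 ± 0.38 (adjusted p = 0.143). Without 1 library the median was 0.52 (KO 3W replicate 3), 0.09 (KO 3W replicate 2), 0.14 (KO 3W replicate 4) or 0.12 (KO 12W HFD replicate 2). In 7 genes both KO 12W HFD libraries lay above all KO 3W libraries (9.27% of all genes), and in Ifit2 and Cmpk2 below (9.46%). The 14 most abundant members ran from -0.92 ± 0.51 for Irf1 to 1.53 ± 0.83 for Zbp1.

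KO 12W HFD against KO 1W HFD gave 0 of 45, where 0.760% of all genes were called. Of the 45 genes 7 were positive (42.6% of all genes), with a median of -0.40 against -0.06 over all genes. An unadjusted limma p under 0.05 was reached by 2 of the 45 and by 7.95% of all genes. Ifit2 read 8.31 and 7.64 TPM in KO 12W HFD and 30.1 and 20.5 TPM in KO 1W HFD (-1.53 ± 0.43, adjusted p = 0.104), and Cmpk2 was at -1.75 ± 0.62 (adjusted p = 0.290). In 20 genes both KO 12W HFD libraries lay below both KO 1W HFD libraries, which held for 22.5% of all genes, and in Isg15 and Ifi47 above (15.0%). Bst2 was at -0.86 ± 0.47 (adjusted p = 0.740), and the 14 most abundant members ran from -1.03 ± 0.99 for Usp18 to 0.32 ± 0.66 for Lgals3bp. The macrophage sums of 2387 and 6754 TPM in KO 12W HFD were above the 641 and 1000 TPM of KO 1W HFD.

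A wider list of 76 pathway genes, chosen by function, placed these changes among ligands, receptors and further targets, and 61 of them were tested. In WT 1W HFD against WT 3W, 14 rose and 1 fell, where 4.78% of all genes rose and 3.25% fell. The interferon gamma receptor chain Ifngr1 rose by 1.20 ± 0.23 (adjusted p = 0.00167) and Il10rb, a receptor chain shared with interferon lambda, by 0.65 ± 0.19 (adjusted p = 0.0310). The factor gene Irf5 rose by 1.65 ± 0.50 (adjusted p = 0.0396) and Tlr3, a sensor of double-stranded RNA, by 0.99 ± 0.31 (adjusted p = 0.0452). Further targets that rose included Slfn2, a regulator of T cell and monocyte quiescence (3.15 ± 0.52, adjusted p = 0.000381), the GTPase genes Tgtp1 and Tgtp2 (2.40 ± 0.56 and 2.15 ± 0.59), and Sp100, a component of nuclear bodies (1.48 ± 0.25). The near-identical Tgtp1 and Tgtp2 may share reads and their values are uncertain. Ifitm1, which blocks virus entry, was the gene that fell (-3.66 ± 0.68, adjusted p = 0.00122). Macrophage marker sums were 344 to 517 TPM in WT 1W HFD and 68.1 to 162 TPM in WT 3W libraries, and their part was not tested.

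In WT 12W HFD against WT 3W, 24 of the 61 rose and 3 fell, where 7.94% of all genes rose and 6.23% fell. Ifng, the interferon gamma gene made mainly by lymphocytes, rose by 1.25 ± 0.32 (adjusted p = 0.00717), and the receptor chains Ifngr1 (0.90 ± 0.22), Ifngr2 (0.75 ± 0.24) and Il10rb (0.58 ± 0.18) rose as well. Irf5 (3.13 ± 0.47) and the sensors Dhx58 (1.95 ± 0.53), Tmem173 (1.15 ± 0.27) and Tlr7 (1.52 ± 0.34) rose. The immunoproteasome genes Psmb8 (1.46 ± 0.29) and Psmb9 (1.63 ± 0.32), and Nlrc5, which drives MHC class I genes (1.37 ± 0.30), rose. The genes that fell were Ifitm1 (-3.54 ± 0.64), Socs3, a feedback inhibitor (-1.59 ± 0.49), and Cxcl10, a chemokine gene (-2.02 ± 0.68, adjusted p = 0.0450), while its relative Cxcl9 rose by 2.70 ± 0.55 (adjusted p = 0.000798). Irf5, Tlr7 and Ifng are genes of immune cells. Macrophage marker sums were 3191 to 6568 TPM in WT 12W HFD and 68.1 to 162 TPM in WT 3W libraries. Sums of 15 lymphocyte markers had a median of 52.1 and a highest of 264 TPM in WT 12W HFD. In WT 3W libraries these were 5.74 and 8.18 TPM. The part of these cell types was not tested.

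The other comparisons called fewer pathway genes. WT 6M against WT 3W called 8 higher and 1 lower (4.00% and 6.85% of all genes), with Ifng at 1.76 ± 0.44, Irf5 at 2.34 ± 0.64 and Psmb9 at 1.81 ± 0.44, and Mavs, the adaptor of RNA sensors, lower at -1.26 ± 0.38. WT 12W HFD against WT 1W HFD called Tlr7 (1.32 ± 0.39) and Nlrc5 (1.29 ± 0.34), both higher at 12W HFD (3.54% of all genes). WT 3W against WT P12 called 3 higher and 1 lower (0.626% and 1.00% of all genes), the DNA-binding family members Ifi203, Ifi204 and Ifi205 (2.09 ± 0.39, 2.37 ± 0.52 and 3.12 ± 0.64), and Slfn2 lower (-3.51 ± 0.66). KO 12W HFD against KO 3W called 8 higher and 0 lower (3.19% and 1.96% of all genes), among them Irf5 (2.98 ± 0.67), Tmem173 (1.52 ± 0.39), Slfn2 (2.93 ± 0.69) and Cxcl9 (2.89 ± 0.79). KO 1W HFD against KO 3W, with 0.428% of all genes higher, called Epsti1, a gene known from epithelial and stromal interaction (1.67 ± 0.40, adjusted p = 0.0441). The 3 comparisons of KO with WT at matched stage called 0 of 61.

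Open chromatin was read from 9 ATAC-seq libraries, 2 KO and 3 WT at 3W, 2 WT at 1W HFD and 2 WT at 12W HFD, in which a transposase marks accessible DNA and the authors called peaks for each library. A gene was said to have a promoter peak where a deposited peak lay within 500 bases of its RefSeq start. The lists held 55990 to 93314 peaks, so a peak missing from a short list does not show closed chromatin, and no test was made. Of the 35 interferon response genes with a promoter entry, 30 (85.7%) had a peak in all 9 libraries, against 61.5% of 16700 genes. Irf1 had the strongest peak by rank, with its −log10 q at percentile 98.3 to 99.6 of each library's list, in all 9 libraries.

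The genes without a peak in some library were Oas1a, Oas3, Ifi47, Samd9l and Ifi44. Oas1a, whose RNA was at 0 to 7.41 TPM in WT 3W, had a peak in KO 3W replicate 1 and in all 4 WT HFD libraries, and in 0 of the 3 WT 3W libraries. Ifi47 had a peak in both KO 3W libraries and in all 4 WT HFD libraries, and in 0 of 3 WT 3W libraries. Samd9l lacked a peak in WT 3W replicate 3. Oas3 had a peak in KO 3W replicate 1 and WT 1W HFD replicate 1, and Ifi44 had 0. WT 3W replicates 2 and 3 had the shortest lists (55990 and 58675 peaks), and WT 3W replicate 1, with 77862 peaks, also lacked the Oas1a and Ifi47 peaks. In KO 3W replicate 1 the Oas1a peak ranked low in its list, at percentile 17.2.

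Some peaks cover more than the promoter. The Irf1 peak was 22553 to 23381 bases wide in 6 of 9 libraries and 3068 to 3644 bases wide in the others. For Isg15, 5 of 9 libraries had a peak of 3669 to 5162 bases with its summit 2164 to 2843 bases away from the start, and in the other 4 libraries the peak was 619 to 1094 bases wide with its summit within 133 bases. The rank of a wide peak belongs to the whole peak.

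**Figure D5:**
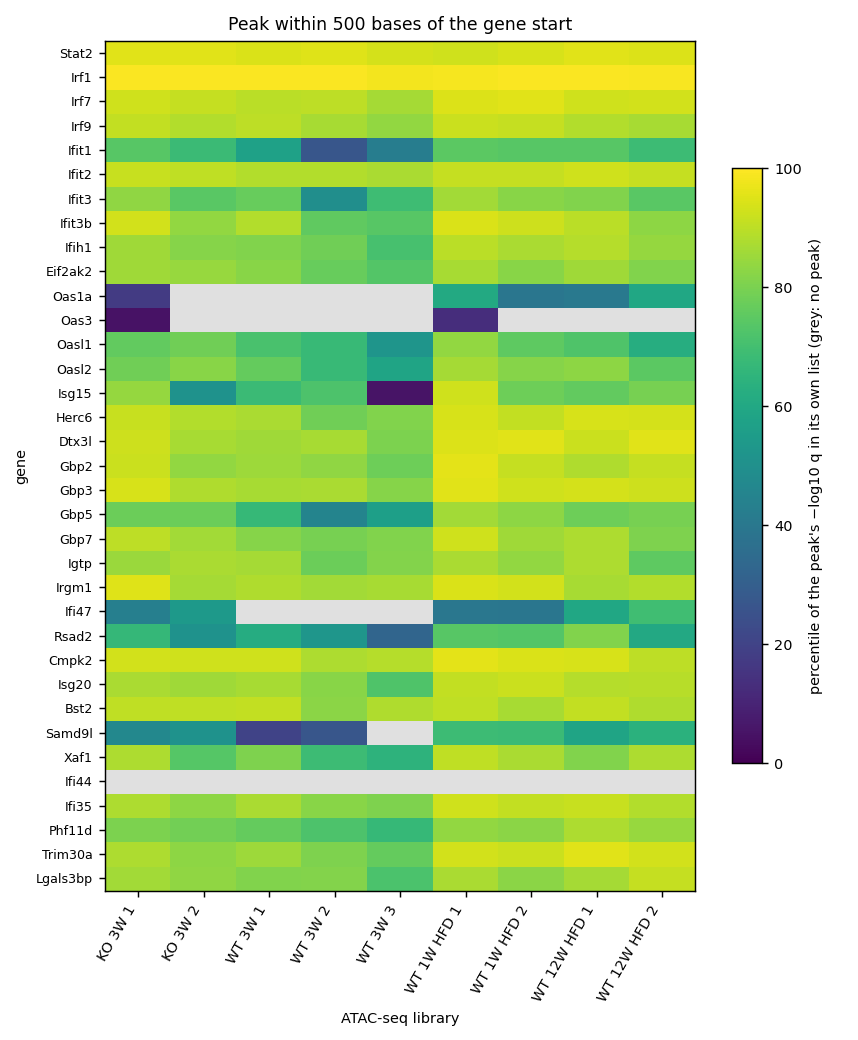
For 35 genes (rows) and 9 ATAC-seq libraries (columns), the percentile of the −log10 q of the promoter peak within the list of that library, with grey where no peak lay within 500 bases of the start. The lists differ in length, so colours are compared within a column only. Ifi44 is grey throughout, and Oas1a and Ifi47 are grey in all 3 WT 3W libraries.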

How the data were processed

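The RNA values are TPM per gene, deposited by the authors as 1 table of WT and 1 of KO libraries with the same 25746 genes, with column sums of 918008 to 969385. Per the submitters' processing notes, the tools were STAR 2.5.3a, RSEM, Trim Galore 0.6, FastQC, Bowtie2 2.3 and MACS2, with build mm10 and no role named for each. The ATAC-seq peak lists, deposited by the authors for each library, give a score, a fold enrichment and a −log10 q per peak, which are the authors' own values. The fold enrichment and the score were not used for any result.

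Genes that reached 1 TPM in 2 or more libraries were fitted as log2(TPM + 1) with limma 3.58.1 in R 4.3.3, with 8 group means over 29 libraries (21 residual degrees of freedom), empirical Bayes moderation with a trend, and Benjamini-Hochberg adjustment over 15659 genes. The script was tested on simulated data. The threshold was 0.05. A fold on this scale understates the change of low genes. Samples were grouped by title.

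The 46 genes and all lists were chosen with earlier results of these data known. In each comparison the text names every member past the threshold (the 10 with the largest change where more passed, and here all), the 3 with the smallest p where fewer than 3 passed, and the 2 of highest mean TPM in each role, or the range of these 14. Alternatives were other pseudocounts, filters and scalings, library weights, fits of the compared groups alone, fits with a replicate block and fits without 1 library. Strand use in counting is not known here, so reads of overlapping antisense genes cannot be told apart. Peaks were matched within 500 bases of a RefSeq start. The promoter table had no entry for 11 of the 46 genes, which are named only in the RNA results.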

Additional observations from a re-analysis of the deposited data

Results flagged for a closer look

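In 17 of 184 groups of 4 to 10 libraries, the highest or lowest library stood apart from the nearest other by more than Dixon's 95% limit, where chance gives about 1 in 20. Of the 17, 8 were WT 12W HFD replicate 1, with Oas1a at 106.13 TPM, Oas2 at 13.3 TPM, Oas3 at 4.53 TPM, Oasl2 at 192.0 TPM, Herc6 at 20.29 TPM, Parp9 at 24.89 TPM, Gbp3 at 118.18 TPM and Ifi44 at 40.07 TPM. Each was the highest of its 5 libraries. The 46 genes summed to 5610 TPM in this library.

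Among WT 1W HFD libraries, Ifit2 stood apart at 37.9 TPM and Gbp5 at 0.54 TPM in replicate 3, Ifi44 at 4.74 TPM in replicate 1, and Oas3 at 0.06 TPM in replicate 4. The other 3 WT 1W HFD libraries were listed at 0 for Oas3. Among WT 3W libraries, Oas2 stood apart at 2.79 TPM in replicate 5 and Mx1 at 1.86 TPM in replicate 4. Among KO 3W libraries, Igtp stood apart at 42.04 TPM in replicate 3, Mx1 at 0.25 TPM in replicate 1 and Phf11d, the low one, at 14.55 TPM in replicate 5.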

How the results depend on the processing

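Counts of genes called, of 45, moved by 1.5 times or more in these settings. WT 1W HFD against WT 3W gave 7 with no filter on low values, 9 with the compared groups alone and 9 with a replicate block, against 14 in the report. WT 6M against WT 3W gave 2 with no filter, 7 with median-ratio scaling, 0 with library weights and 0 with the compared groups alone, against 4, and 6 each with quantile scaling and with a replicate block. WT 3W against WT P12 gave 0 with library weights and 1 each with the compared groups alone and a replicate block, against 2. WT 12W HFD against WT 1W HFD gave 3 with library weights, against 1, and Mx1 lost its call with the compared groups alone (adjusted p = 0.0764). KO 12W HFD against KO 3W gave 1 with library weights and 1 with the compared groups alone, against 0. The cause was not tested. With 1 library left out the counts ran from 5 to 14 for WT 1W HFD against WT 3W, 10 to 21 for WT 12W HFD against WT 3W, 1 to 3 for WT 12W HFD against WT 1W HFD, 0 to 5 for WT 6M against WT 3W and 1 to 2 for WT 3W against WT P12, and were 0 in all other comparisons. Where 1 library remained in a group, its spread was taken from the rest of the groups. With a replicate block the median change was 0.32 for KO 3W against WT 3W and -1.18 for KO 12W HFD against WT 12W HFD, with 0 called in both. In the latter, WT 12W HFD replicates 3 to 5 have no KO library of their number, so the change rests on replicates 1 and 2. WT 12W HFD replicate 1, the library of highest interferon gene levels, is among these. The labels give KO 3W and WT 3W libraries pair numbers without saying what a pair shares, so the number was used only in this block. A pair number can stand on more than 1 WT 3W library, which gave 6 matches of a KO with a WT library. Of these, 5 had deviations correlated above 0.1 (range -0.131 to 0.482), which the main fit does not model. Pair numbers entered only where KO 3W was compared with WT 3W. Elsewhere the block was the replicate number, which the labels do not describe as a pair. For KO 12W HFD against WT 12W HFD, deviations of libraries with the same number correlated at -0.185 and -0.011. Of the changes of named genes compared across settings, 50 lost their call, 8 gained 1 and 55 moved under other settings, while 2092 did not. Those that moved are uncalled changes that shifted by their standard error or more. With 1 library left out 67 lost, 12 gained and 46 moved, while 2289 did not. Gbp4 and Isg20 (WT 3W against WT P12) and Mx1 (WT 12W HFD against WT 1W HFD) were entered in duplicate in these counts. Over all 45 genes and all comparisons, calls not made in the report appeared 17 times under other settings and 26 times with 1 library left out. Of the called values compared, 0 changed direction. Read depth is unknown, and groups of 2 libraries limit the KO, P12 and 6M comparisons.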
